A study of Rattus norvegicus with 16 samples.

Results

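The output arm of the circadian clock was followed in rat liver through 10 genes: Dbp, Tef, Hlf, Nfil3, Nr1d1, Nr1d2, Rora, Bhlhe41, Usp2 and Cirbp. A probe set (the array's group of probes for 1 transcript) was a candidate for one of these genes where the platform annotation gave it that symbol alone, and the candidate with the highest mean over the 16 arrays stood for the gene. All 10 genes were found among 13438 genes represented on the array, and all 10 passed the filter on low values, as did 11434 genes in all. The mean level over the arrays therefore chose the probe sets, and the genes themselves were picked with results of these data known, so counts over them are descriptions.

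The livers came from 16 male F344 rats, an inbred laboratory strain, labelled 4 weeks old and reared for 3 weeks in 4 groups of 4. Hydrogen-treated rats on a choline-deficient diet of defined L-amino acids (CDAA), which leads to fatty liver in rats, had hydrogen-rich drinking water at 0.7 mM and cage air holding 2% hydrogen. Control CDAA rats ate the same diet with dehydrogenized water and plain air. Hydrogen-treated and control rats on the normal diet ate basal chow with the same 2 kinds of water and air, so hydrogen in water and hydrogen in air were always given together. One array per rat recorded normalised log2 signal, in which a difference of 1 is a factor of 2, and no time of day of sampling is given in the labels.

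The clock of liver cells is a loop in which BMAL1 with CLOCK or NPAS2 activates genes through E-boxes, and the PER and CRY proteins made from some of these genes inhibit the pair. A further loop runs through the REV-ERB receptors (Nr1d1, Nr1d2), which repress Bmal1, and the ROR receptors (Rora), which activate it through the same DNA element. The PAR bZIP factors DBP, TEF and HLF carry the rhythm to genes of detoxification and lipid metabolism through D-boxes, and NFIL3 represses through the same element. In rodent liver the transcripts of Dbp and Bmal1 are highest at opposite times of the day.

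The sequences that connect these genes are shown first. RefSeq (GRCr8) gave the 250 bases before the start site for 9 of the 10 genes, in 10 windows because Nr1d1 had a pair of starts. Capitals mark matches, on either strand, to the E-box CACGTG, its variant CACGTT, the D-box TTATGNAA or the ROR element core TAGGTCA. The first sequence is the window of Dbp, shown because Dbp had the largest difference between groups among the 10 genes and these letters are not in its window (chr1:105312006-105312255, plus strand). The second is the window before the outer start of Nr1d1, with 1 CACGTT match, written AACGTG on this strand (chr10:84231813-84232062, minus strand).
Dbp window: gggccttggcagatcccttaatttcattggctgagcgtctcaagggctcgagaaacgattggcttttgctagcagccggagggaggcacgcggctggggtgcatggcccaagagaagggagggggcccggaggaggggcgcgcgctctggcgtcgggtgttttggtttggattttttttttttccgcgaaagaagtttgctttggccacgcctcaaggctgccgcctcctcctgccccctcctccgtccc
Nr1d1 window: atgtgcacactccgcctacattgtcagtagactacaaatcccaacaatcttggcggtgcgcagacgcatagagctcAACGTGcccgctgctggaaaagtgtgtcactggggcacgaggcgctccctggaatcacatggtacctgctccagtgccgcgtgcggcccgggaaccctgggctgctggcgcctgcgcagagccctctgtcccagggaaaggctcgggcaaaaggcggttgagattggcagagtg
The other matches in the windows of the 10 genes are given as 30 bases around the site, to show the element itself. The Tef site lies 198 bases before the start of that window's transcript (chr7:115206617-115206646, plus strand), the site of the inner Nr1d1 start 191 bases before it (chr10:84229628-84229657, minus strand) and the Bhlhe41 site 48 bases before its start (chr4:180569386-180569415, minus strand). Bmal1 (chr1:176766298-176766327, plus strand) and Per2 (chr9:99497167-99497196, minus strand) are core clock genes shown for the elements of the REV-ERB and ROR receptors and of the PAR bZIP factors.
Tef E-box: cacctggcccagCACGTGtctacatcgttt
Nr1d1 inner E-box: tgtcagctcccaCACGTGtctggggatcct
Bhlhe41 E-box: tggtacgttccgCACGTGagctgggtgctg
Bmal1 ROR element core: gggaaggcagaaagTAGGTCAgggacggag
Per2 D-box: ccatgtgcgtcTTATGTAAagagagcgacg
The Tef and inner Nr1d1 windows lie inside the annotated genes, and the Bhlhe41 and Bmal1 stretches lie within the annotated bounds of their genes. Positions of exons were not available. The E-box was in 3 of the 10 windows, against 5.59% of 33469 promoter windows of the same length. CACGTT was in 1 of the 10 (4.07% of all windows), and the D-box (3.28%) and the ROR element core (2.26%) were in 0 of the 10. Among 8 windows of core clock genes, with a pair for Clock and none for Cry1, the E-box was in 0. CACGTT was in 2, those of Per2 and Cry2, whose sites are not printed. The D-box and the ROR element core were each in 1 of the 8, those printed above. A match of letters is not evidence of binding. A window of 250 bases without a match does not show that the gene lacks the element elsewhere.

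The arrays carried the labelled tissue, and a pair of them stood apart. The 7 hepatocyte markers on the array lay between 10.19 and 13.73 on every array, well above the low-value line of 3.68, the 30th percentile of all values. Markers of other cell types were mixed on all arrays: the pancreatic Amy2a3, the T cell gene Cd3d and the duct cell gene Sox9 stayed below the line, while the pancreatic Cela1 lay at 7.93 to 8.6, the leukocyte gene Ptprc at 6.21 to 8.16, Cd3e at 4.42 to 4.79, and the duct cell genes Epcam and Krt19 at 6.66 to 8.08 and 4.69 to 5.25. Pairs of arrays within a group correlated at 0.9905 to 0.9975. On the first principal component, which held 66% of the variance and separated the diets, control normal-diet replicate 4 lay at -13.44 and the other normal-diet arrays between -35.09 and -32.03. That array was the lowest of its group for 7 of the 10 genes, as was hydrogen normal-diet replicate 4 in its group, which lay with the others on that component. Control CDAA replicate 2 was the highest of its group for 7 of the 10 genes and the lowest for 2. On that component it lay at 25.18, inside its group's range of 23.85 to 34.58. It was thus singled out by the values of the 10 genes themselves, and fits without it are no independent support. Calls that change without it are named beside the result.

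With hydrogen on the CDAA diet 5 of the 10 genes passed the test (limma over all probe sets, Benjamini-Hochberg adjusted p under 0.05), with Dbp, Tef and Cirbp higher and Nfil3 and Rora lower. Over all 11434 genes 0.376% passed, 0.192% higher and 0.184% lower, and nothing is read from the contrast of these shares because the genes were picked with results known. The log2 differences of the 10 genes had a median size of 0.83, against 0.078 over all genes. All 10 had an unadjusted p under 0.05, as did 1440 of all 11434 genes, and 8 of the 10 were higher and 2 lower. In 7 of the 10 the hydrogen-treated and control arrays did not overlap, as in 3.76% of all genes. Without control CDAA replicate 2, and also without it and control normal-diet replicate 4, 8 of the 10 passed, with Hlf, Nr1d1 and Usp2 added (1.53% and 1.6% of all probe sets), and with only the 8 CDAA arrays in the fit 0 of the 10 passed, as did 0.00884% of all probe sets. Leaving out 1 other array gave 4 calls without hydrogen normal-diet replicate 1 or hydrogen CDAA replicate 3, and 1 to 3 calls without any of the remaining 13, always with Dbp. Hepatocyte markers had a summed level of 15.66 to 15.69 in hydrogen-treated and 15.67 to 15.73 in control CDAA livers, and macrophage markers 10.07 to 10.67 and 9.97 to 10.4. In whole liver, fewer cells of a type and less RNA per cell cannot be told apart.

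**Figure D1:**
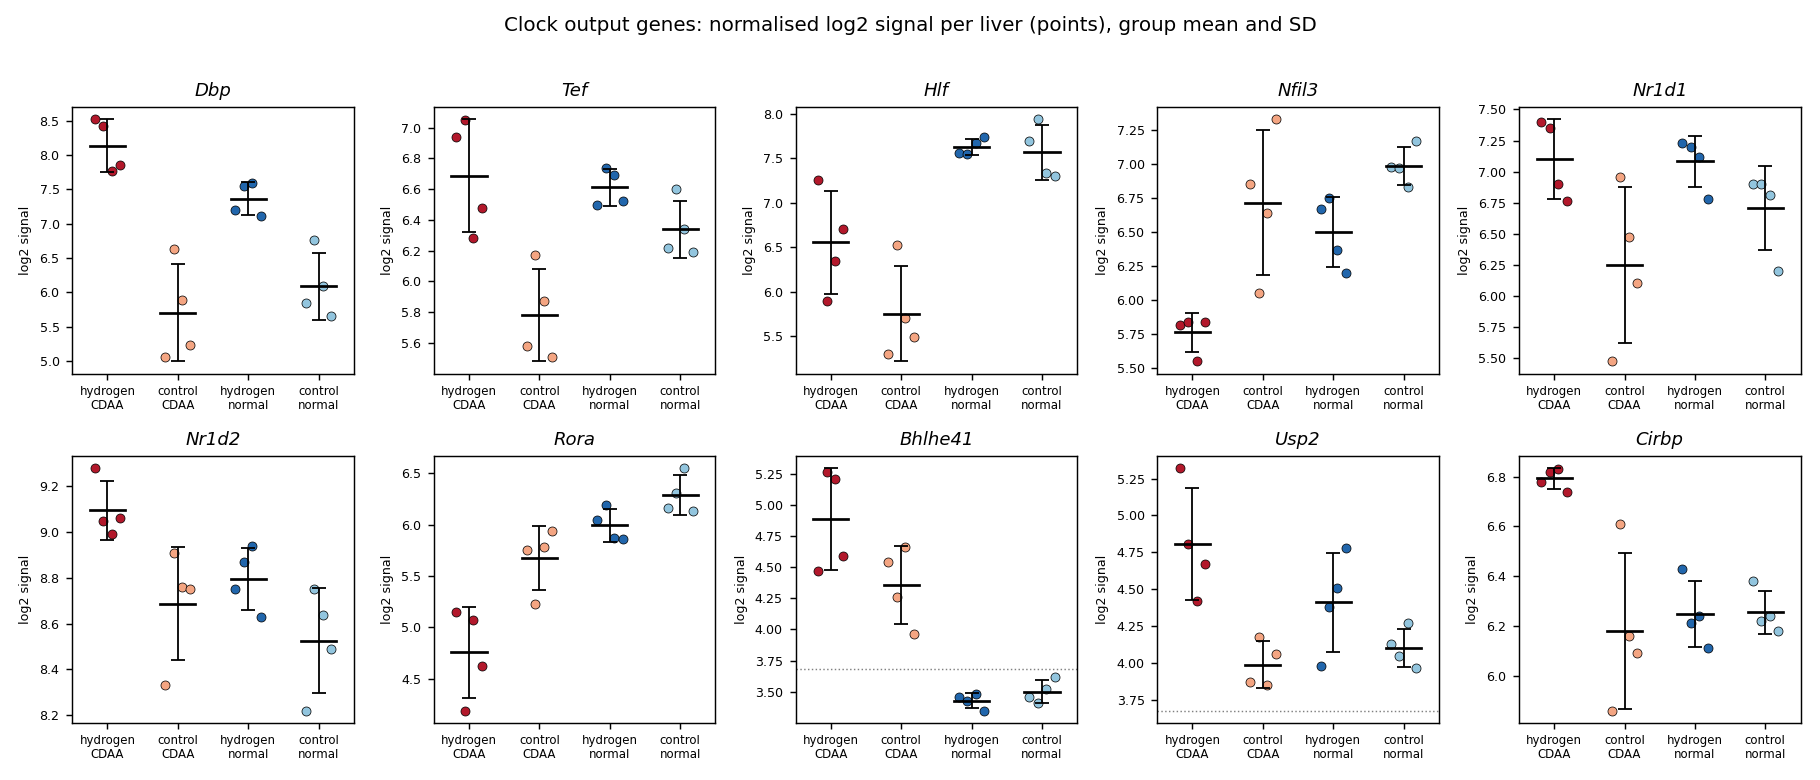
Normalised log2 signal of the 10 genes, one panel per gene with its own vertical axis. Points are livers (replicates 1 to 4 from left to right in each group), horizontal bars are group means and vertical bars SD (n = 4); the dotted line, where drawn, is the low-value line at 3.68. All 4 hydrogen-treated CDAA livers lie above all 4 control CDAA livers for Dbp and Cirbp, and below them for Nfil3 and Rora.

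Dbp, the founding PAR bZIP factor, had the largest of these differences. Its level was 8.52, 8.42, 7.77 and 7.85 in hydrogen-treated CDAA livers, against 5.06, 6.63, 5.89 and 5.24 in control CDAA livers. The lowest hydrogen-treated liver was above the highest control liver. Dbp was 5.41-fold higher with hydrogen (log2 2.43 ± 0.301 as estimate and standard error, adjusted p = 0.00183, limma, 4 livers a group), the change of rank 2 by size among 11434 genes. It passed with each of the 16 arrays left out in turn, between log2 2.22 and 2.74, and missed the threshold in a fit of the 8 CDAA arrays alone (adjusted p = 0.0975, limma).

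Dbp on the normal diet lay at 7.2, 7.55, 7.6 and 7.12 in hydrogen-treated livers, against 5.84, 6.77, 6.09 and 5.65 in control livers. These groups did not overlap either. The difference, 2.43-fold (log2 1.28 ± 0.301, rank 5 by size), did not pass over all probe sets (adjusted p = 0.224, limma, unadjusted 0.000614), and passed only when arrays were weighted by their quality (adjusted p = 0.0466). Whether hydrogen acted on Dbp more on one diet was tested by the interaction, log2 1.16 ± 0.426 (adjusted p = 0.464, limma), which did not pass. Averaged over the diets Dbp was 3.62-fold higher with hydrogen (log2 1.86 ± 0.213, adjusted p = 0.00101, limma), rank 1 of 11434 by size.

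Tef, a close relative of Dbp, moved the same way by less. It had 6.94, 7.05, 6.28 and 6.48 in hydrogen-treated CDAA livers, against 5.58, 6.17, 5.87 and 5.51 in control CDAA livers. The groups did not overlap, but the third hydrogen-treated liver was only just above the second control liver. The rise was 1.87-fold (log2 0.91 ± 0.165, adjusted p = 0.0286, limma). It passed in 11 of 16 fits that left out 1 array and missed the threshold without control CDAA replicate 1, 3 or 4 or hydrogen CDAA replicate 1 or 2 (adjusted p 0.0715 to 0.123, limma). The 2 other Tef probe sets differed by 0.82 and 0.17 in the same direction and did not pass. Tef differed by 0.28 ± 0.165 on the normal diet (adjusted p = 0.762, limma).

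Hlf, the PAR bZIP gene with the largest diet difference here, had 7.26, 5.9, 6.34 and 6.71 in hydrogen-treated CDAA livers and 5.3, 6.52, 5.7 and 5.49 in control CDAA livers. These groups overlapped through control replicate 2. The difference was log2 0.80 ± 0.263 (adjusted p = 0.244, limma), and without that array 1.06 ± 0.234 (adjusted p = 0.0352). Nfil3, which represses where the PAR bZIP factors activate, lay at 5.82, 5.84, 5.55 and 5.84 in hydrogen-treated CDAA livers, against 6.85, 6.05, 6.64 and 7.33 in control CDAA livers. Every hydrogen-treated liver was below every control liver. Nfil3 was 1.94-fold lower with hydrogen (log2 -0.96 ± 0.194, adjusted p = 0.04995, limma), just under the threshold, and among fits that left out 1 array it passed only without control CDAA replicate 2 (log2 -1.18, adjusted p = 0.00132); the other 15 gave adjusted p up to 0.143.

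Nfil3 on the normal diet was at 6.67, 6.75, 6.37 and 6.2 in hydrogen-treated livers, against 6.98, 6.97, 6.83 and 7.17 in control livers, again without overlap. That difference of -0.49 ± 0.194 did not pass (adjusted p = 0.6, limma). Averaged over both diets Nfil3 was lower with hydrogen (log2 -0.72 ± 0.137, adjusted p = 0.0478, limma), a call kept in 1 of 16 fits that left out an array, without control CDAA replicate 2, with adjusted p up to 0.114 in the others.

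**Figure D2:**
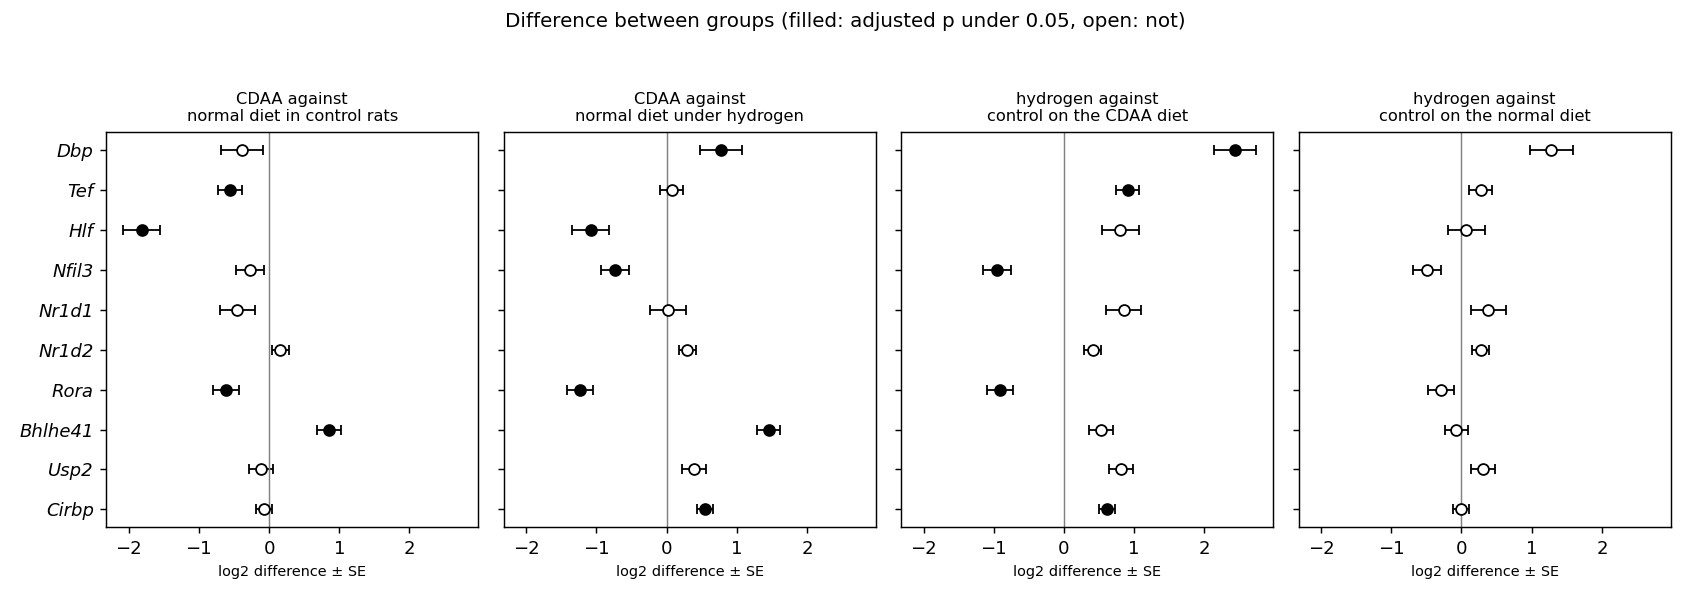
Log2 difference between groups for the 10 genes, one panel per comparison; points are limma estimates from 16 arrays and bars are standard errors. Filled points passed at an adjusted p under 0.05 over all probe sets. Dbp stands farthest right under hydrogen on the CDAA diet (2.43), and Hlf farthest left under the CDAA diet in control rats (-1.81).

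Among the nuclear receptors, only Rora passed with hydrogen on the CDAA diet. Rora, which encodes a ROR receptor, was at 5.15, 4.19, 5.07 and 4.62 in hydrogen-treated CDAA livers, against 5.75, 5.23, 5.78 and 5.94 in control CDAA livers. The groups did not overlap, with 5.15 and 5.23 as the nearest values. Rora was 1.89-fold lower with hydrogen (log2 -0.92 ± 0.186, adjusted p = 0.04995, limma). It passed in 3 of 16 fits that left out 1 array, those without control CDAA replicate 2 or hydrogen CDAA replicate 1 or 3, and adjusted p reached 0.195 in the others. The second Rora probe set, near the low-value line, differed by only -0.07 ± 0.0888.

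Nr1d1, which encodes REV-ERB alpha, was at 7.4, 7.35, 6.9 and 6.76 in hydrogen-treated CDAA livers, against 5.47, 6.96, 6.47 and 6.1 in control CDAA livers. Only control replicate 2 reached into the hydrogen-treated range. The difference was log2 0.85 ± 0.251 (adjusted p = 0.202, limma), and without that array 1.09 ± 0.227 (adjusted p = 0.0266). Nr1d1 overlaps Thra, the thyroid hormone receptor alpha gene on the other strand, by 1061 bases at chr10:84224599-84225659, and the 2 tested Thra probe sets stayed between 4.5 and 5.46 on all arrays.

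Nr1d2, which encodes REV-ERB beta, had 9.28, 9.05, 8.99 and 9.06 in hydrogen-treated CDAA livers, against 8.33, 8.91, 8.76 and 8.75 in control CDAA livers. The groups did not overlap, and the difference of 0.41 ± 0.125 did not pass (adjusted p = 0.215, limma); a second probe set gave 0.42 ± 0.13. Nr1d1 on the normal diet was at 7.23, 7.2, 7.12 and 6.78 in hydrogen-treated livers, against 6.9, 6.9, 6.81 and 6.2 in control livers. Nr1d2 was at 8.75, 8.87, 8.94 and 8.63 in hydrogen-treated normal-diet livers, against 8.22, 8.75, 8.64 and 8.49 in control livers. Both pairs of groups overlapped. On the normal diet hydrogen differences were 0.38 ± 0.251 for Nr1d1, 0.27 ± 0.125 for Nr1d2 and -0.29 ± 0.186 for Rora, none of which passed.

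Cirbp, a cold-inducible RNA-binding protein that in mouse cells modulates the clock, was almost constant among hydrogen-treated CDAA livers, at 6.78, 6.82, 6.83 and 6.74, against 5.86, 6.61, 6.16 and 6.09 in control CDAA livers. Hydrogen-treated livers were all higher. The rise was 1.53-fold (log2 0.61 ± 0.115, adjusted p = 0.034, limma). It passed in 6 of 16 fits that left out 1 array; the misses, with adjusted p of 0.0511 to 0.137, were without control normal-diet replicate 2 or 3, hydrogen normal-diet replicate 2 or 3, control CDAA replicate 1, 3 or 4, or hydrogen CDAA replicate 1, 2 or 3. The 2 other Cirbp probe sets differed by 0.54 and 0.33 and did not pass.

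On the normal diet the Cirbp groups overlapped, with 6.43, 6.21, 6.24 and 6.11 in hydrogen-treated livers and 6.38, 6.22, 6.24 and 6.18 in control livers. The interaction for Cirbp was 0.62 ± 0.163 (adjusted p = 0.295, limma), and 0.76 without control CDAA replicate 2, where it passed (adjusted p = 0.0229). Usp2, a deubiquitinase with rhythmic expression in liver, had 5.32, 4.81, 4.42 and 4.67 in hydrogen-treated CDAA livers, against 3.87, 4.18, 3.85 and 4.06 in control CDAA livers. The groups did not overlap, and the difference of 0.81 ± 0.171 just missed the threshold (adjusted p = 0.0621, limma). It passed without control CDAA replicate 2 (0.88 ± 0.185, adjusted p = 0.0278), and also without hydrogen normal-diet replicate 1 or hydrogen CDAA replicate 3. Usp2 on the normal diet was at 3.98, 4.38, 4.51 and 4.78 in hydrogen-treated livers and 4.13, 4.05, 4.27 and 3.97 in control livers, which overlapped (0.31 ± 0.171, adjusted p = 0.731, limma).

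Bhlhe41, also called DEC2, a repressor that acts at E-boxes, was above the low-value line only on the CDAA diet. It had 4.47, 5.26, 5.21 and 4.59 in hydrogen-treated CDAA livers, against 4.54, 4.26, 4.66 and 3.96 in control CDAA livers, and these groups overlapped (0.53 ± 0.166, adjusted p = 0.227, limma). All 8 normal-diet livers were below the low-value line, at 3.35 to 3.48 with hydrogen and 3.41 to 3.62 without. Bhlhe41 thus passed the filter on low values only through the CDAA arrays.

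Hydrogen on the normal diet gave no call among the 10 genes by limma, against 0.00875% of all genes. Of the 10, 3 (Dbp, Nfil3 and Nr1d2) had an unadjusted p under 0.05, as did 813 of all 11434 genes. The groups did not overlap for 2 of the 10, Dbp and Nfil3, as for 5.69% of all genes. The interaction called 0 of the 10 by limma, and 0% of all genes passed. Here 5 of the 10 had an unadjusted p under 0.05, as did 1060 of all 11434 genes. The average hydrogen effect called 2 of the 10, Dbp and Nfil3, against 0.192% of all genes (0.0437% higher, 0.149% lower). For this average 9 of the 10 had an unadjusted p under 0.05, as did 1213 of all 11434 genes. Without control CDAA replicate 2 the average called 7 of the 10 and the interaction 1, Cirbp, while the shares of all probe sets called were 0.649% and 0.0928%, against 0.163% and 0.00442% over all 16 arrays; the average called 3 without hydrogen CDAA replicate 3, 2 without hydrogen normal-diet replicate 1, and Dbp alone without any of the other 13 arrays.

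**Figure D3:**
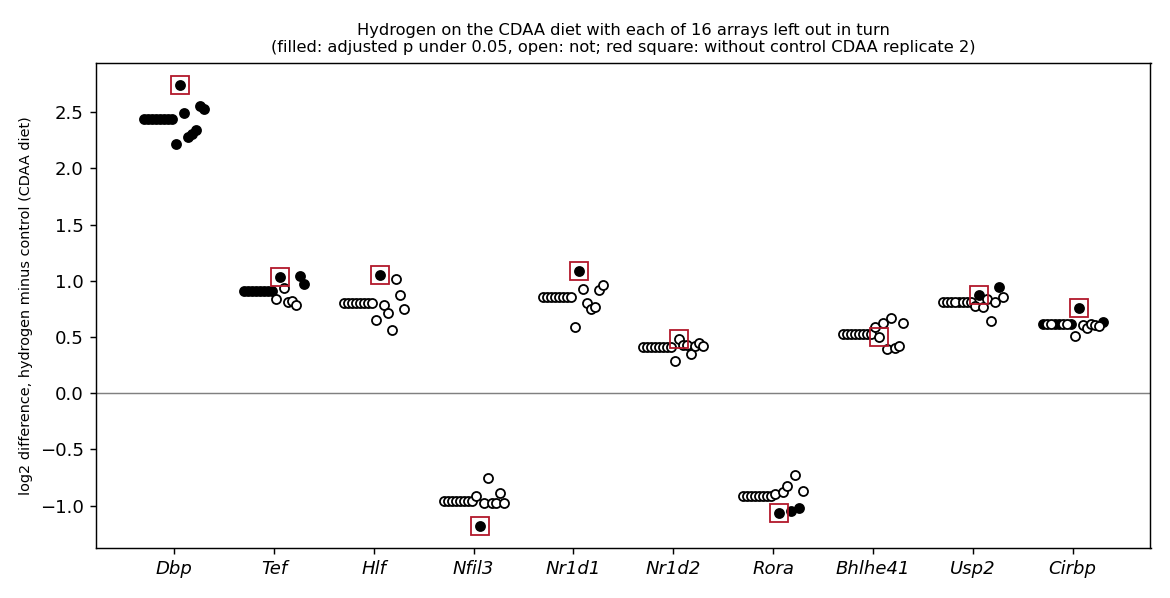
Log2 difference between hydrogen-treated and control CDAA livers for each gene, with each of the 16 arrays left out in turn (one point per fit). Filled points passed at an adjusted p under 0.05, and red squares mark the fit without control CDAA replicate 2. Dbp stays filled throughout, between 2.22 and 2.74.

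Between the diets the calls fell partly on other genes. In control rats 4 of the 10 genes passed between the CDAA and normal diets, Bhlhe41 higher and Tef, Hlf and Rora lower, close to the 40.6% of all genes that passed, 27.3% higher and 13.3% lower. Bhlhe41 entered the test only through its CDAA arrays, so its call in either diet comparison is no support for a rise. Without control normal-diet replicate 4 and control CDAA replicate 2 together 6 of the 10 passed in control rats, with Dbp, Nr1d1 and Cirbp added and Rora lost, as did 34.5% of all probe sets. The diet and hydrogen comparisons share arrays, so their values are not independent of each other. Under hydrogen 6 of the 10 passed, against 49.5% of all genes (32.1% higher, 17.3% lower), with Dbp, Bhlhe41 and Cirbp higher and Hlf, Nfil3 and Rora lower. The groups did not overlap for 4 of the 10 in control rats (all genes 38.0%) and for 7 of the 10 under hydrogen (43.8%). Summed levels of lymphocyte markers were 8.09 to 8.42 and 7.87 to 8.21 in hydrogen-treated and control CDAA livers. In hydrogen-treated and control normal-diet livers they were 6.98 to 7.25 and 7.06 to 7.46. This sum mostly follows its highest member, the leukocyte gene Ptprc. Of the T cell genes, Cd3d stayed below the low-value line, and Cd3e (4.42 to 4.79) and Cd8a (3.84 to 4.34) varied little over all arrays. More lymphocytes on the CDAA diet therefore cannot be read from the sum. Summed duct cell markers were also higher on the CDAA diet and mostly follow Epcam. The part of these cell types in the differences was not tested.

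Hlf had the largest diet difference. It lay at 5.3, 6.52, 5.7 and 5.49 in control CDAA livers, against 7.69, 7.94, 7.33 and 7.3 in control normal-diet livers. The gap between these groups was wide and without overlap. Hlf was 3.51-fold lower on the CDAA diet (log2 -1.81 ± 0.263, adjusted p = 8.93e-05, limma), and 2.11-fold lower under hydrogen (log2 -1.08 ± 0.263, adjusted p = 0.00368), where normal-diet livers were at 7.56, 7.55, 7.67 and 7.74. The second Hlf probe set fell by 0.89 in control rats (adjusted p = 0.00272, limma) and differed by -0.16 ± 0.2 under hydrogen (adjusted p = 0.519), so the probe sets part ways there.

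Rora was lower on the CDAA diet in both settings. It differed by -0.61 ± 0.186 in control rats (adjusted p = 0.0175, limma) and by -1.24 ± 0.186 under hydrogen (adjusted p = 7.85e-05), with normal-diet levels of 6.05, 6.19, 5.87 and 5.86 under hydrogen and 6.16, 6.31, 6.55 and 6.13 in control rats. The order of its group means was hydrogen-treated CDAA, control CDAA, hydrogen-treated normal and control normal from lowest to highest, and the normal-diet pair overlapped. Without control normal-diet replicate 3 or control CDAA replicate 2 the difference in control rats missed the threshold for Rora (adjusted p = 0.0592 and 0.058, limma). The second Rora probe set, near the low-value line, differed by only -0.05 ± 0.0888 in control rats (adjusted p = 0.696, limma). Under hydrogen that probe set fell by 0.26 (adjusted p = 0.0247).

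Tef fell on the CDAA diet in control rats (log2 -0.56 ± 0.165, adjusted p = 0.0155, limma), where normal-diet livers had 6.22, 6.6, 6.34 and 6.19. It differed by 0.07 ± 0.165 under hydrogen, where the hydrogen-treated normal-diet livers had 6.5, 6.74, 6.69 and 6.52. The call for Tef in control rats was lost without control normal-diet replicate 2 (adjusted p = 0.0565) and without control CDAA replicate 1 or 4 (0.05 and 0.0531, limma), and the 2 other Tef probe sets fell by 1.28 and 0.31 with both called. Those probe sets also fell under hydrogen, by 0.85 and 0.27, so they differ there from the chosen one.

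Bhlhe41 was higher on the CDAA diet in both settings, with the low-value line in place of the normal-diet mean. It was at least 1.6-fold higher in control rats (adjusted p = 0.000907, limma) and at least 2.3-fold under hydrogen (adjusted p = 6.94e-06). Because Bhlhe41 passed the filter only through the CDAA arrays, these values are descriptions. Dbp differed by -0.38 ± 0.301 between the diets in control rats (adjusted p = 0.349, limma) and rose by 0.77 ± 0.301 under hydrogen (adjusted p = 0.0472). That last call held in 7 of 16 fits that left out 1 array; it was lost without control normal-diet replicate 1 or 3, any hydrogen normal-diet array, control CDAA replicate 3 or hydrogen CDAA replicate 1 or 2, with adjusted p of 0.0536 to 0.123. Nfil3 fell under hydrogen by 0.73 ± 0.194 (adjusted p = 0.00621, limma) and Cirbp rose by 0.55 ± 0.115 (adjusted p = 0.00132), and both kept the call in all 16 such fits. The third Cirbp probe set fell by 0.32 on the CDAA diet in control rats (adjusted p = 0.0479, limma), where the chosen one differed by -0.07. Under hydrogen the second Cirbp probe set rose by 0.375 (adjusted p = 0.0308, limma), while the third differed by -0.075 (adjusted p = 0.626). Nr1d1, Nr1d2 and Usp2 passed in neither diet comparison over all 16 arrays, but with 1 array left out each passed in some fits. Nr1d1 passed in control rats without control CDAA replicate 2, Nr1d2 under hydrogen without control normal-diet replicate 1 or control CDAA replicate 1, and Usp2 under hydrogen without hydrogen normal-diet replicate 4 or hydrogen CDAA replicate 3.

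Livers of the same group also differed from each other, and several of the genes did so together. With group means removed, the deviations of Tef followed those of Dbp over 16 arrays (Pearson r = 0.909, Spearman rho = 0.938, permutation p = 0.00014 for r and 0.00019 for rho within groups, two-sided, adjusted over 9 pairs 0.00126 and 0.00171). The arrays farthest from the median of Dbp were replicate 2 of the control normal-diet and of the control CDAA group, and without them r for Tef was 0.887. Within the diets r for Tef was 0.902 on the CDAA diet and 0.978 on the normal diet, over 8 arrays each. In hydrogen-treated CDAA livers, replicates 1 and 2 lay above replicates 3 and 4 for both genes, and the order of all 4 livers was the same for both in the control normal-diet group alone.

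Nr1d1 followed Dbp with r = 0.85 and rho = 0.837 (permutation p = 0.00287 and 0.00531, adjusted 0.0129 and 0.0159), with 0.823 without the 2 farthest arrays. Its r was 0.95 on the CDAA diet and 0.595 on the normal diet. Nr1d2 followed with r = 0.766 and rho = 0.738 (permutation p = 0.00779 and 0.00317, adjusted 0.0234 and 0.0143), with 0.679 without the farthest arrays and 0.776 and 0.778 within the diets. Leaving out only control CDAA replicate 2 moved the adjusted permutation p of both to 0.0505, with r = 0.764 for Nr1d1 and 0.731 for Nr1d2, while Tef kept r = 0.886 (adjusted 0.00432). Nr1d2 also missed the threshold without control CDAA replicate 3 or hydrogen CDAA replicate 1, and Hlf passed without hydrogen CDAA replicate 2.

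The other 6 genes did not pass this test by either measure. Hlf had r = 0.623 (rho = 0.553, adjusted permutation p = 0.0925 and 0.148), Cirbp 0.596 (0.518, adjusted 0.167 and 0.148) and Usp2 0.368 (0.388, adjusted 0.167 and 0.207). Nfil3 had r = -0.511 (rho = -0.424, adjusted permutation p = 0.241 and 0.207), Rora -0.288 (-0.162, adjusted 0.396 and 0.612) and Bhlhe41 -0.086 (-0.165, adjusted 0.777 and 0.612). For Cirbp r was 0.841 on the CDAA diet and -0.104 on the normal diet. Without control CDAA replicate 2, over 15 arrays, r was 0.188 for Cirbp, 0.393 for Hlf, 0.294 for Usp2, -0.11 for Nfil3, 0.04 for Rora and -0.013 for Bhlhe41. With the mean of all probe sets of a gene in place of the chosen one, Hlf passed (r = 0.753, adjusted permutation p = 0.0234).

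**Figure D4:**
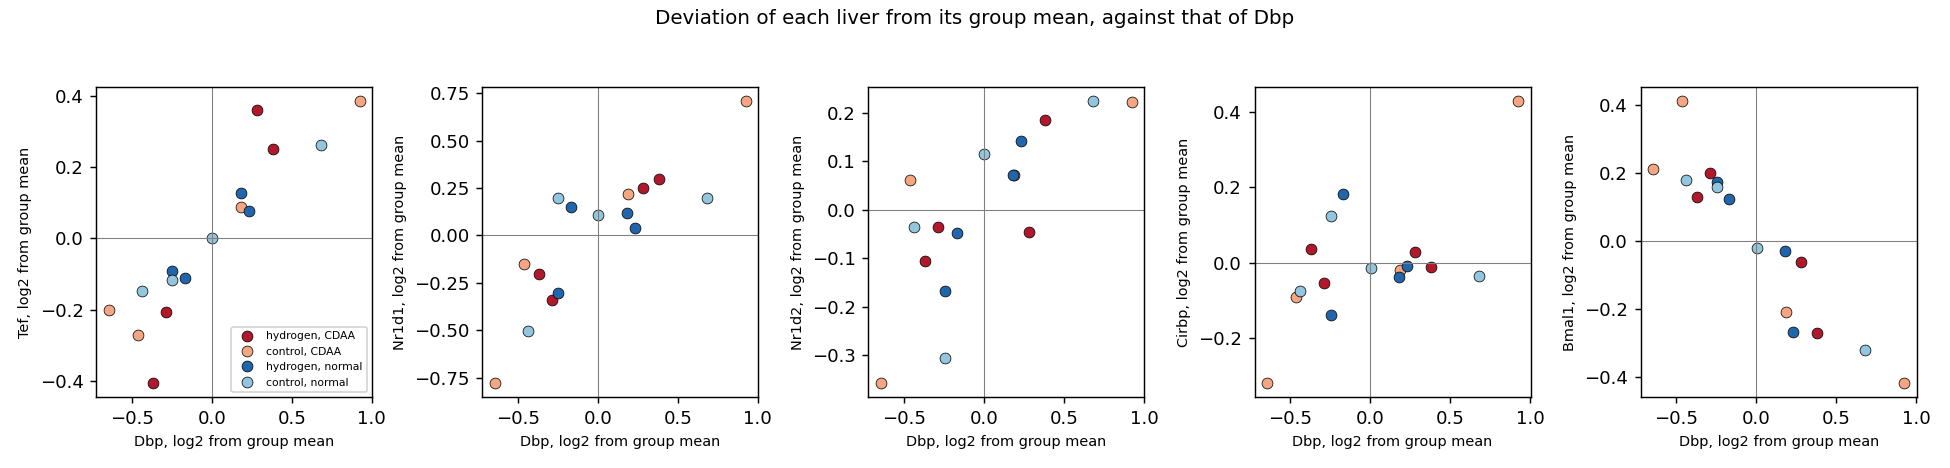
Deviation of each liver's log2 signal from its group mean for Tef, Nr1d1, Nr1d2, Cirbp and the core clock gene Bmal1 (vertical axes) against that of Dbp (horizontal axes). Each point is 1 liver, coloured by group, 16 in each panel. Tef rises along the Dbp axis (r = 0.909) and Bmal1 falls along it (r = -0.931); the rightmost point is control CDAA replicate 2.

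Ranked by this within-group likeness to Dbp over 16 arrays, among 11424 genes without the 10, the highest r belonged to Per3 (0.922), the 17-beta-hydroxysteroid dehydrogenase gene Hsd17b2 (0.897), Cpne6 (0.894), Grk1 (0.882) and Ccpg1 (0.851). The lowest belonged to Bmal1 (-0.931), Nip7 (-0.879), Sec14l1 (-0.874), Ticam1 (-0.867) and Utp3 (-0.86). These are descriptions over arrays that share one normalization, taken from the ends of a ranking of 11424 genes. Cpne6 and Grk1, with means of 3.95 and 4.16, lie near the low-value line. Of the highest and lowest genes named here only Per3, Hsd17b2 and Bmal1 also differed with hydrogen on the CDAA diet in limma (adjusted p 0.00937, 0.00183 and 0.00223). Among the other core clock genes Cry2 had r = 0.759 (rank 53 from the top) and Cry1 0.612 (rank 418). Per2 had 0.405, Per1 0.256 and Npas2 -0.795 (rank 23 from the bottom). An r near that of Hlf or Cirbp was thus found in many genes outside the 10. Cry1 had a positive r within groups, though with hydrogen on the CDAA diet it was lower and Dbp higher.

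The core loop was set beside its outputs. Of 7 tested core clock genes 5 passed with hydrogen on the CDAA diet, Per2 and Per3 higher and Bmal1, Npas2 and Cry1 lower. Over all genes 0.376% passed, 0.192% higher and 0.184% lower. This list too was chosen with results of these data known, so its counts are descriptions. Clock lay below the low-value line on all 16 arrays. Bmal1, the partner that E-box activation depends on, was at 3.73, 3.94, 4.13 and 4.2 in hydrogen-treated CDAA livers, against 5.5, 4.87, 5.08 and 5.7 in control CDAA livers. The groups were far apart, and Bmal1 was 2.44-fold lower (log2 -1.29 ± 0.167, adjusted p = 0.00223, limma). Per3, a period gene, was at 6.36, 6.47, 5.81 and 5.84 in hydrogen-treated CDAA livers, against 4.3, 5.42, 4.76 and 4.37 in control CDAA livers. It was 2.65-fold higher (log2 1.41 ± 0.215, adjusted p = 0.00937, limma), and its high livers were the high livers of Dbp.

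The period gene Per2 was 2.3-fold higher (log2 1.2 ± 0.218, adjusted p = 0.0278, limma), the cryptochrome gene Cry1 1.44-fold lower (-0.53 ± 0.0766, adjusted p = 0.00515) and Npas2 2.19-fold lower (-1.13 ± 0.229, adjusted p = 0.04995). Bmal1, Per3 and Cry1 kept their calls in 16 of 16 fits that left out 1 array, and 0 of the 7 core genes passed in a fit of the 8 CDAA arrays alone (adjusted p = 0.108 for Bmal1 and 0.283 for Per3 and Cry1, limma). With the mean of all probe sets of a gene the difference was 0.79 for Per3 and 0.6 for Per2, both called. Per2 lost its call without control CDAA replicate 4 or hydrogen CDAA replicate 1 or 2 (adjusted p 0.0726 to 0.114, limma), and its second probe set did not differ by more than its error (-0.0025 ± 0.0584). Npas2 kept its call in 3 of 16, without control normal-diet replicate 2, control CDAA replicate 2 or hydrogen CDAA replicate 4, and its groups overlapped through control replicate 2 at 6.45. Per1 (0.28 ± 0.101) and Cry2 (0.52 ± 0.135) did not pass, but Cry2 passed without control CDAA replicate 2 (0.65, adjusted p = 0.0113, limma). On the normal diet 0 of the 7 passed in limma, against 0.00875% of all genes, with 3 at an unadjusted p under 0.05 (813 of 11434 over all genes).

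**Figure D5:**
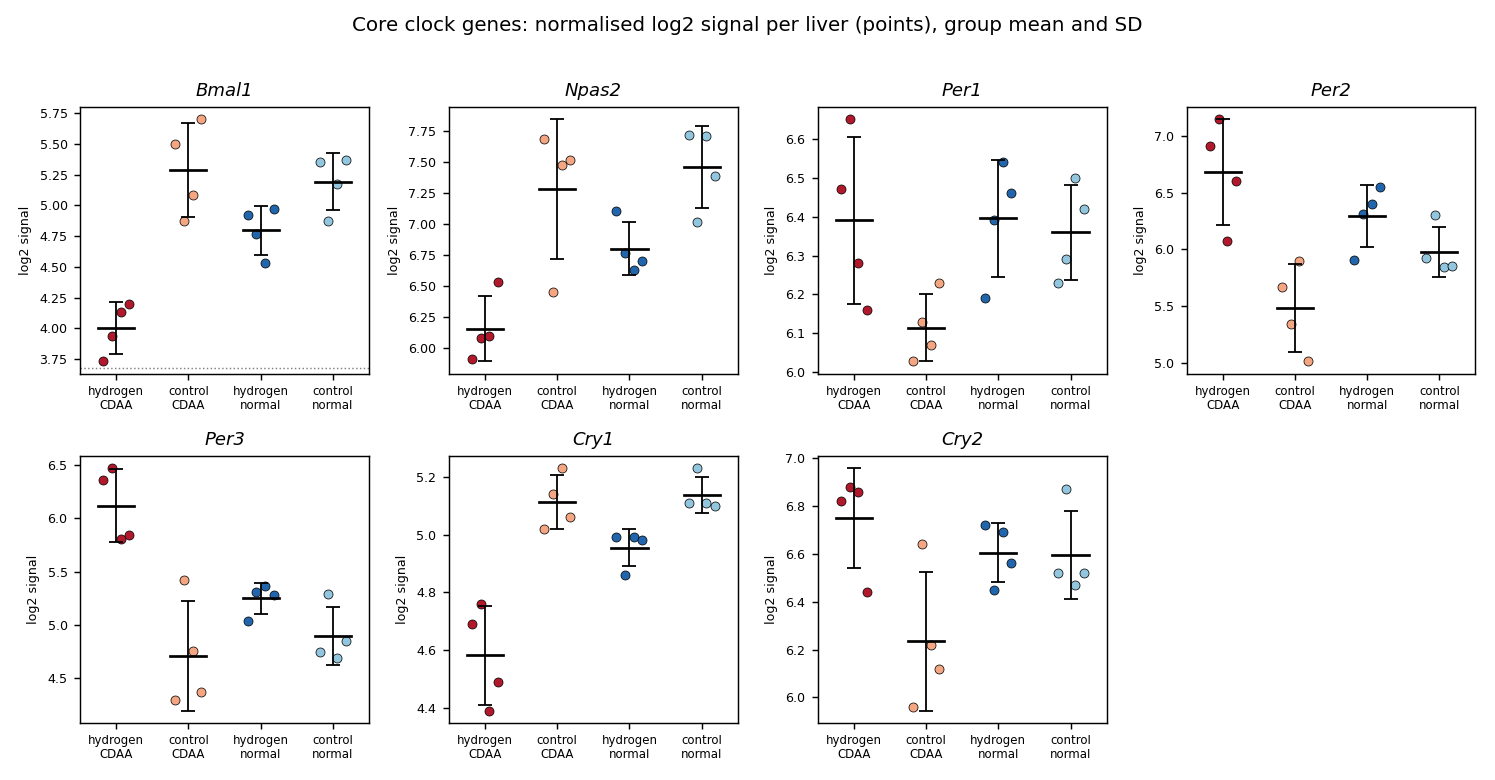
Normalised log2 signal of the 7 tested core clock genes, drawn as for the 10 output genes: points are livers, horizontal bars group means and vertical bars SD (n = 4), each panel with its own axis and the low-value line at 3.68 dotted where it falls within a panel. Bmal1 and Npas2 are lowest, and Per3 highest, in hydrogen-treated CDAA livers, with group means of 4.00, 6.16 and 6.12.

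Lists of genes downstream of or linked to these factors were set beside them. With hydrogen on the CDAA diet 0.376% of all genes passed, so few calls in a short list say little about its genes. The lists were drawn up from general knowledge with results of these data in view, and some genes stand on more than 1 list. Of 13 tested PAR bZIP targets of liver 0 passed with hydrogen on the CDAA diet in limma, with 6 at an unadjusted p under 0.05 and a median log2 difference of 0.39. Of 12 tested REV-ERB and ROR targets 1 fell, Insig2, which helps hold the SREBP lipid regulators in the endoplasmic reticulum (log2 -1.1 ± 0.146, adjusted p = 0.00259, limma), and it was also lower averaged over both diets (-0.63 ± 0.103, adjusted p = 0.0193). Of 13 fasting and feeding responsive genes 1 fell, the fatty acid synthase gene Fasn (-1.22 ± 0.224, adjusted p = 0.03). In limma 0 of 9 other clock-linked genes passed with hydrogen on the CDAA diet (1 at an unadjusted p under 0.05), 0 of 13 temperature-responsive and HSF1 genes (1) and 0 of 14 glucocorticoid-responsive genes (5). On the normal diet and in the interaction each of these 6 lists had 0 calls in limma (1 to 5 members at an unadjusted p under 0.05). Of all 11434 genes, 1440 had such an unadjusted p with hydrogen on the CDAA diet, 813 on the normal diet and 1060 in the interaction.

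Between the diets these lists differed in direction, beside 27.3% of all genes higher and 13.3% lower in control rats and 32.1% and 17.3% under hydrogen. In control rats 7 of 13 PAR bZIP targets passed (5 higher, 2 lower), with the smallest p-values for the retinal dehydrogenase gene Aldh1a1 (log2 2.21 ± 0.254), Acot2 (1.27 ± 0.161) and the transporter gene Abcb1a (1.12 ± 0.167), and 6 of 12 REV-ERB and ROR targets (3 and 3), with the smallest p-values for the lipoprotein lipase gene Lpl (2.75 ± 0.239), Apoa1 (0.33 ± 0.0612) and Srebf1 (-0.55 ± 0.127). Of the other clock-linked genes 3 of 9 rose, Tspo (1.02 ± 0.137), the cell cycle kinase gene Wee1 (0.69 ± 0.134) and Csnk1e (0.26 ± 0.0937). Of the temperature-responsive genes 5 of 13 rose, among them Rbm3, a cold-inducible relative of Cirbp (1.01 ± 0.144). Of the glucocorticoid-responsive genes 1 of 14 rose and 3 fell, and of the fasting and feeding responsive genes 4 of 13 rose and 4 fell. Under hydrogen the counts higher and lower were 6 and 2, 2 and 5, 5 and 0, 4 and 2, 3 and 6, and 3 and 6 in the same order of lists.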

How the data were processed

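Liver RNA of each of 16 rats was hybridised to its own RG-230 PM array (Affymetrix). The deposited values are log2 signal after RMA normalization, per the submitters' processing notes, which name the Affymetrix Expression Console with no version. Deposited log2 values ran from 2.42 to 13.73, with array medians of 4.33 to 4.37. RMA fits all arrays together and compresses low signals, and precision is limited by how many arrays there are.

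From these values, the 31139 probe sets were reduced by 97 array controls and by 8408 that were not above 3.68 (the 30th percentile) on at least 4 arrays, which left 22634 tested. Of all probe sets but the controls, 19063 had 1 gene symbol in the platform annotation, 572 several, and 11407 were not listed or had none. Limma 3.58.1 in R 4.3.3 fitted 1 mean per group over all 16 arrays, with eBayes and Benjamini-Hochberg adjustment over the tested probe sets of each comparison, and an adjusted p under 0.05 was called. An exact permutation test of 4 against 4 cannot go below p = 0.0286. Within-group agreement was tested with 100000 permutations within groups in Python 3.11.15 with numpy 2.4.6. Both procedures were tested on simulated data.

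The 10 genes and the other lists were chosen with earlier results of these data known. The text names all 10 genes, every measured core clock gene, up to 3 called genes of smallest p per further list, and the 5 highest and 5 lowest correlations with Dbp. The labels number 4 rats per group, array strip, scan date and time of day of sampling are not given there, and p-values measure only the spread between these rats. Alternatives covered the low-value filter, scaling, the arrays in the fit, the variance model, array weights, the probe set rule, a replicate block and each array left out. Leaving out the 2 arrays that stood apart together was chosen after seeing the data. Same-numbered rats are not paired by the labels.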

Additional observations from a re-analysis of the deposited data

Results flagged for a closer look

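Of 72 sets of 4 livers, for the 10 output genes and the core clock genes, 7 held 1 liver whose gap to the others exceeded Dixon's critical value of 0.829 as a share of the range, where chance flags about 5% of such groups. Nfil3 was at 5.55 in hydrogen-treated CDAA replicate 3, with the other livers of that group at 5.82 to 5.84. Nr1d1 was at 6.2 in control normal-diet replicate 4, with the others at 6.81 to 6.9. Npas2 was at 6.45 in control CDAA replicate 2, with the others at 7.48 to 7.69. Cry1 was at 4.86 in hydrogen-treated normal-diet replicate 2, with the others at 4.98 to 4.99, and at 5.23 in control normal-diet replicate 2, with the others at 5.1 to 5.11. Cry2 was at 6.44 in hydrogen-treated CDAA replicate 4, with the others at 6.82 to 6.88, and at 6.87 in control normal-diet replicate 2, with the others at 6.47 to 6.52.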

How the results depend on the processing

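Of 1540 values of the 10 genes under alternatives 1406 kept their side of the threshold, 98 lost a call, 36 gained one and 0 called values changed sign, while 19 values called neither way did. With hydrogen on the CDAA diet the number of genes called, 5 of 10, fell to 3 without the low-value filter, with arrays centred on their median and with a variance trend, to 2 with the mean of all probe sets of a gene and to 0 with the 8 CDAA arrays alone, and was 8 without both arrays that stood apart; leaving out 1 array gave 1 to 8. On the normal diet array weights gave 1 in place of 0, and leaving out 1 array gave 0. The interaction gave 1 in place of 0 without both arrays, and 0 to 1 with 1 array left out. The average hydrogen effect, 2 of 10, gave 1 without the filter, with a variance trend or with the mean of probe sets, 4 with array weights, 5 without both arrays, and 1 to 7 with 1 array left out. The diet calls ran from 3 to 4 in control rats and from 5 to 7 under hydrogen with 1 array left out. Agreement with Dbp, called for 3 genes, held for 1 without both arrays and for 1 to 4 with 1 left out. The cause of these shifts was not tested.

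The labels do not pair same-numbered rats, and not every same-numbered pair deviated together: 9 of 24 pairs correlated above 0.1, within -0.129 to 0.325, and among hydrogen and control pairs within a diet 6 of 8 did, within -0.079 to 0.325. Of the 16 arrays 11 correlated best with their own number in the other group of their diet. With the replicate block 3 of the 10 genes were called with hydrogen on the CDAA diet, Nfil3 and Rora no longer (adjusted p = 0.0599 and 0.0508, limma), and the average effect called Dbp and Tef, with Nfil3 at 0.0721. Agreement with Dbp under the block held for 4 genes, with Hlf added (r = 0.852, adjusted permutation p = 0.0115). No other count moved by over 1.5 times under the block. Low signal limits Bhlhe41, Usp2, Bmal1, Cpne6 and Grk1, whose values lie near the low-value line.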
